A study of Mus musculus with 6 samples.

Results

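The genes described here make, use and recycle glutathione in the mouse heart. They were chosen by name: protein-coding genes of the alpha, kappa, mu, omega, pi, theta and zeta classes of glutathione transferase, the microsomal transferases Mgst1 to Mgst3, the glutathione peroxidases, and the genes Gclc, Gclm, Gss, Gsr and Ggct. The rule found 35 genes among the 23808 of the deposited table, and 29 of the 35 had a mean of at least 1 FPKM (fragments normalised to gene length and to the fragments of the library) over all libraries and were tested. The peroxidase genes Gpx2, Gpx5 and Gpx6 are not analysed here. The hearts came from wild-type female mice fed a high-fat diet (HFD, 3 libraries) or normal chow (NC, 3 libraries) between 4 and 12 weeks of age, with RNA taken by Trizol and made into mRNA-seq libraries. The labels give no other treatment, name no strain and do not state whether each library is a separate animal. The p-values therefore reflect differences among these 6 libraries that could be technical. Where 3 values are given for a diet, they belong to its libraries 1, 2 and 3 in that order, and HFD 1 means library 1 of that diet.

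Glutathione is a small cysteine-containing peptide that is the main soluble thiol of cells. It is built in sequence by glutamate-cysteine ligase (the catalytic subunit Gclc with its modifier Gclm) and by glutathione synthetase (Gss). Glutathione transferases join it to electrophiles such as the aldehydes of lipid peroxidation, glutathione peroxidases spend it to reduce hydrogen peroxide and lipid hydroperoxides, and glutathione reductase (Gsr) restores the oxidised form with NADPH. Many of these genes are known targets of NRF2, a transcription factor that responds to electrophiles and oxidants. The heart oxidises much fat and has many mitochondria, where peroxides arise.

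The libraries were checked against markers of heart muscle. All 8 cardiomyocyte markers were above 0 in every library, with summed levels of 27745 to 30717 FPKM on HFD and 31184 to 40436 FPKM on NC. HFD 1 had the lowest summed FPKM of the table (576334, against 687877 to 739406 in the others) and listed 4 mitochondrially encoded genes at 0, which no other library did. HFD 1 was the lowest of the 6 libraries in 10 of the 29 tested glutathione genes (34.5%) and in 33.1% of all tested genes. The depth of the libraries is unknown, because the table gives no counts. In bulk tissue, fewer cells of a type and less RNA per cell cannot be told apart.

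The median level over the 29 tested genes was 13.3 FPKM, against 5.73 FPKM over all 11456 genes tested. Gpx4, Mgst3, Gstp1 and Gstm1 were the 4 genes above 100 FPKM. Another 14 lay between 10 and 100 FPKM and 11 between 1 and 10 FPKM. Those 11 included Gclc, the catalytic subunit of the first enzyme of synthesis. Of the 6 genes under 1 FPKM, Gsto2 (0.513 ± 0.154 FPKM on HFD and 0.689 ± 0.187 FPKM on NC, SD, n = 3 each) was the highest. The others were Gsta2, which reached 0.581 FPKM in 1 library, Mgst2, which reached 0.158 FPKM, Gstt4, listed above 0 only in NC 2 (0.355 FPKM), Gstm3, which stayed at or under 0.0508 FPKM, and Gstp3, listed at 0 in all 6 libraries.

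**Figure D1:**
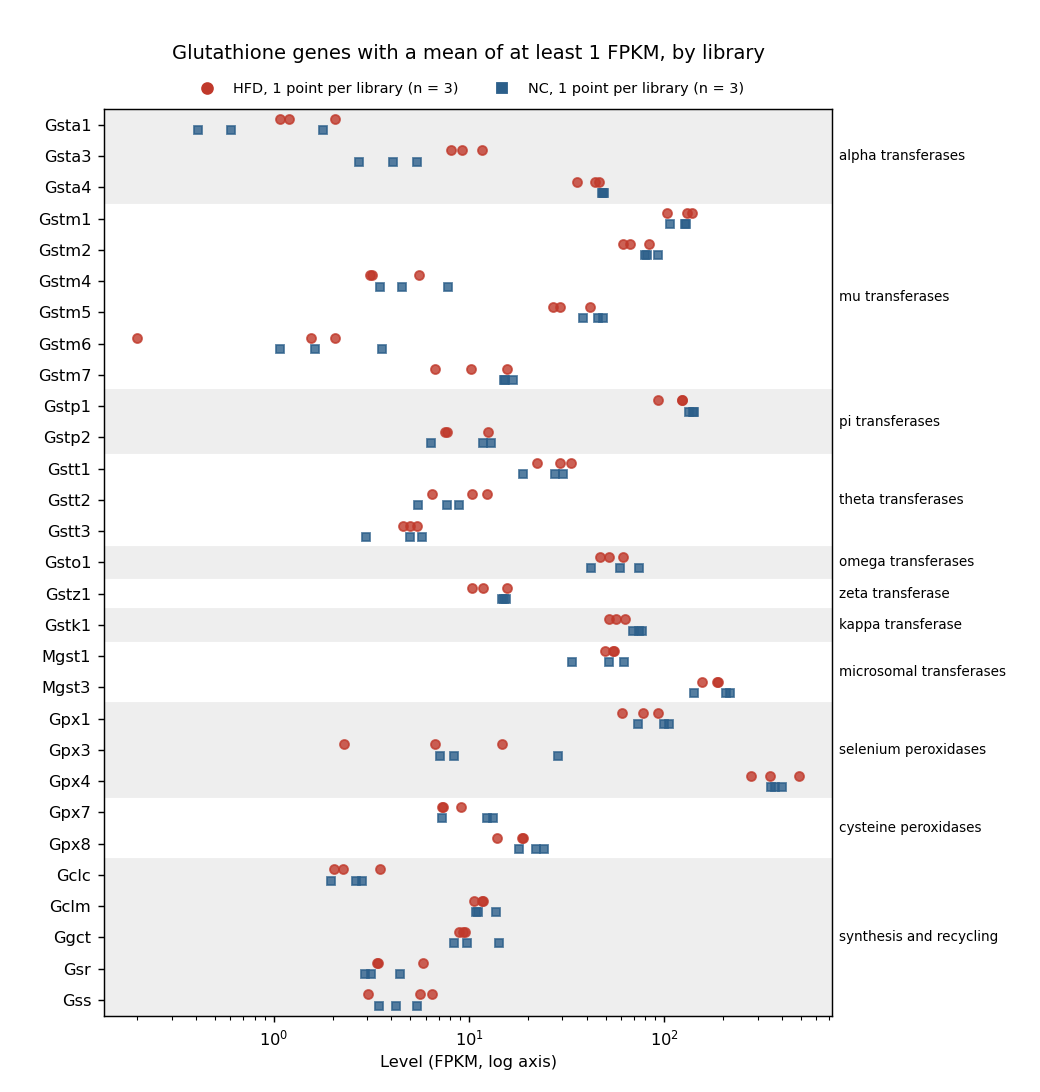
Levels of the 29 tested glutathione genes in FPKM on a log axis, grouped by class, with 1 circle per HFD library and 1 square per NC library (n = 3 each). The HFD points of Gsta3 (8.06 to 11.6 FPKM) lie to the right of its NC points (2.74 to 5.42 FPKM), while in 25 of the 29 genes the diets overlap.

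The comparison asked which of these genes differed in the heart between the diets. None of the 29 passed the test over all genes (limma, two-sided, Benjamini-Hochberg adjusted p of 0.05), and neither did any of the 11456 genes tested (0%). At an unadjusted p of 0.05, limma gave 1 glutathione gene, Gsta3, which was higher on HFD, where 1.32% of all tested genes were higher and 2.30% lower at that p, 3.62% in all. HFD and NC values were separate in 4 of the 29 genes, 1 with HFD above NC (Gsta3) and 3 with HFD below NC (Gstk1, Gstp1 and Gsta4). The number with HFD below NC was 5 after quantile normalization, 6 after median-of-ratios scaling and 2 without mitochondrially encoded genes. Of all tested genes, 5.08%, 5.48% and 3.29% were below in these scalings. Gsta3 was the 1 glutathione gene above in each, where 5.31%, 5.11% and 7.45% of all tested genes were above. In all tested genes as deposited the share without overlap was 8.13%, made up of 3.25% with HFD above and 4.88% with HFD below. The fitted difference was negative in 19 of the 29 genes and positive in 10, with a median log2 fold change (HFD minus NC, of log2(FPKM + 1)) of −0.13. After leaving out mitochondrially encoded genes and equalising sums, 16 were negative and 13 positive. Over all tested genes as deposited it was negative in 53.1% and positive in 46.9%, with a median of −0.02. The directions of Gpx4, Mgst3 and Gclm, which lay close to 0, turned under another scaling between libraries.

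**Figure D2:**
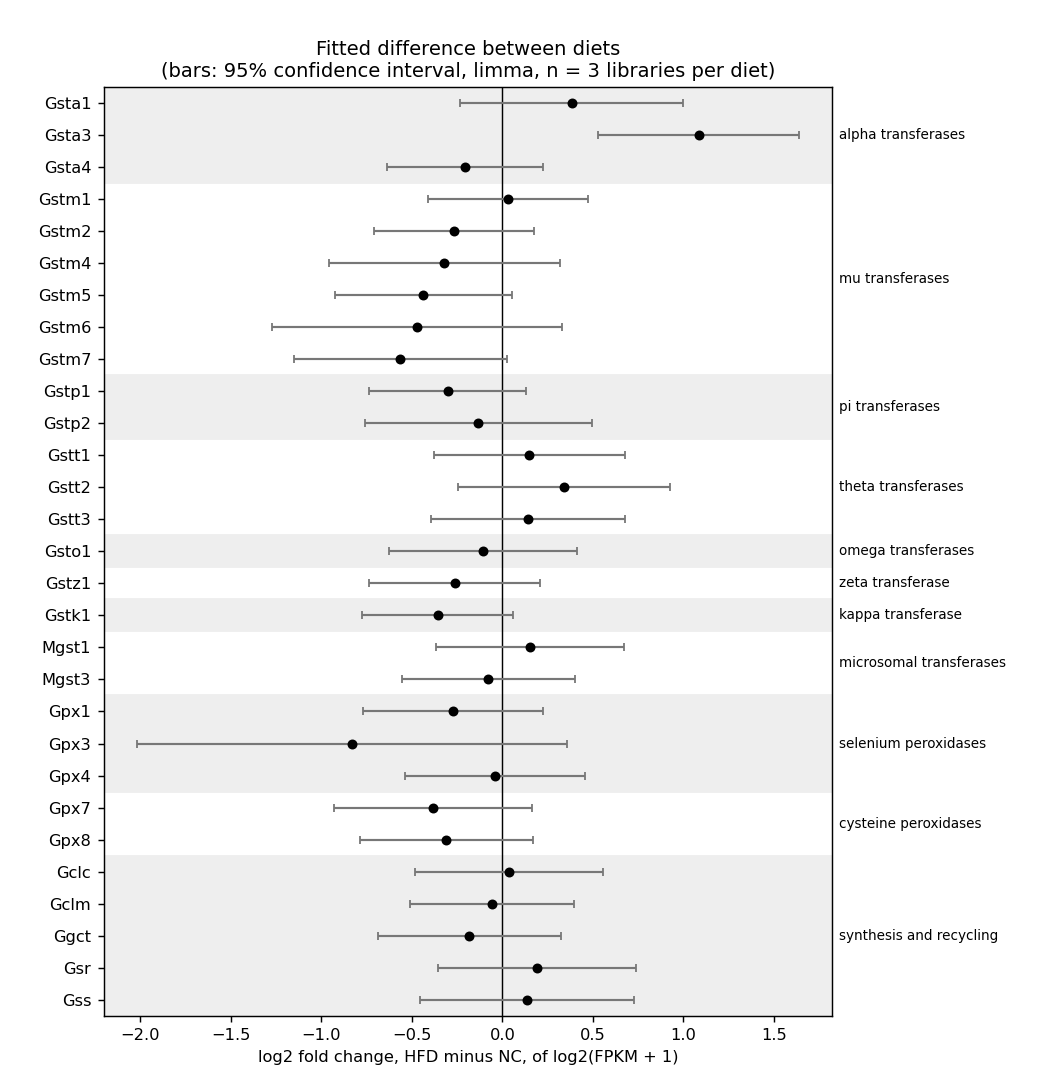
Fitted log2 fold change (HFD minus NC, of log2(FPKM + 1)) of each tested glutathione gene, with its 95% confidence interval from limma (n = 3 libraries per diet). The interval of Gsta3 (0.53 to 1.64) is the only one that leaves out 0.

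Gsta3, an alpha-class transferase known in mice for conjugating aflatoxin epoxide in liver, had the largest fitted difference of the glutathione genes. It was at 9.17, 11.6 and 8.06 FPKM on HFD, against 5.42, 4.08 and 2.74 FPKM on NC. Every HFD library was above every NC library, and the lowest HFD value was 8.06 FPKM beside a highest NC value of 5.42 FPKM. The means were 9.61 ± 1.81 FPKM on HFD and 4.08 ± 1.34 FPKM on NC (SD, n = 3 each), a ratio of 2.36 and a log2 fold change of 1.08 (SE 0.25). The gene ranked 20 of 11456 by p and did not pass (limma adjusted p = 0.624), which does not show that the diets were alike. The diets also did not overlap under each of the 3 other scalings tried. Of 7 hepatocyte markers, 6 were listed at 0 in some library. Their summed level was 0.203, 3.60 and 2.94 FPKM on HFD, against 1.04, 3.91 and 0.517 FPKM on NC, most of it from Alb (albumin) in NC 2, at 2.96 FPKM. The sum was lowest in HFD 1, where Gsta3 was at 9.17 FPKM, and highest in NC 2, where Gsta3 was at 4.08 FPKM. In HFD 2, the library with the highest Gsta3, the sum was 3.60 FPKM. Levels of different genes do not give a share of cells, and the part of these cells in the level of Gsta3 was not tested. Gsta3 spans bases 21240589 to 21265661 of chromosome 1 (mm10, plus strand), apart from the other alpha genes measured, which are on chromosome 9.

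The other alpha genes had smaller fitted differences than Gsta3. Gsta4, which encodes the transferase that favours 4-hydroxynonenal, an aldehyde from lipid peroxidation, was the most abundant of the class. It was at 46.3, 35.7 and 44.4 FPKM on HFD, against 49.2, 47.7 and 48.4 FPKM on NC. All HFD values were below all NC values, the nearest pair being 46.3 FPKM in HFD 1 and 47.7 FPKM in NC 2. The log2 fold change of −0.21 (SE 0.20) was not past the threshold (limma adjusted p = 0.9998). It was −0.09 without HFD 2, and the diets overlapped under all 3 other scalings. Gsta3 made up 14.9 to 23.8% of the summed alpha level on HFD and 5.31 to 9.79% on NC. The alpha sum itself was 53.5 ± 4.49 FPKM on HFD and 53.7 ± 1.96 FPKM on NC (SD, n = 3 each). Gsta1 was low, at 1.44 ± 0.528 FPKM on HFD and 0.934 ± 0.745 FPKM on NC (SD, n = 3 each), with overlap. Its log2 fold change of 0.38 (SE 0.28) was 0.19 when NC 3 was left out, 0.68 when NC 2 was and 0.76 with a pseudocount of 0.1.

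**Figure D3:**
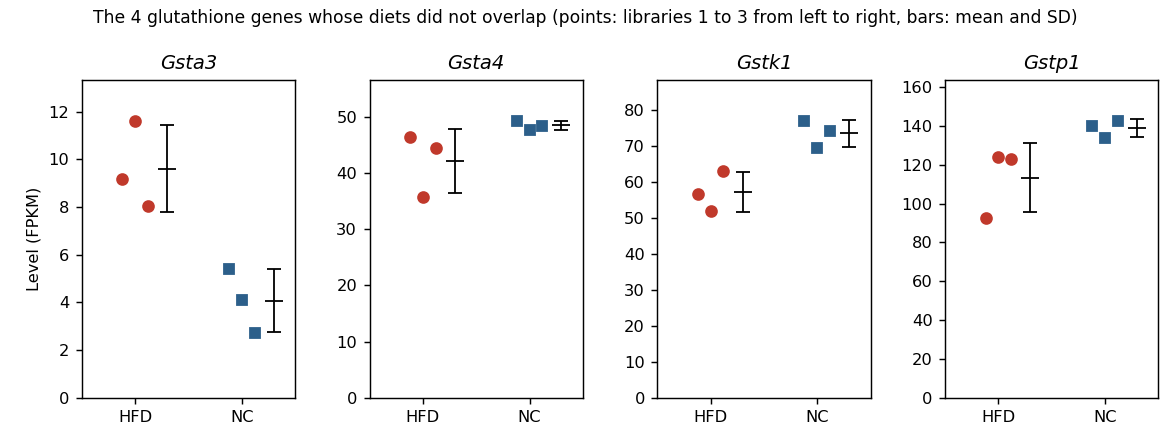
Levels in FPKM of the 4 tested glutathione genes whose diets did not overlap, with 1 point per library and, beside them, the mean and SD of each diet (n = 3). Gsta3 is higher on HFD and Gsta4, Gstk1 and Gstp1 are lower, and none passed the adjusted test.

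Promoters were searched for short motifs because members of this family are known NRF2 targets. The table of promoters from RefSeq (build GRCm38.p6, 250 bases before to 50 bases after each start) held 31 of the 35 genes, with 43 start sites. The core of the antioxidant response element, TGACNNNGC on either strand, was in 6 of the 43 promoters, each of a different gene, and in 12.4% of all 32851 promoters. A CACGTG E-box was in 0 of the 43 and in 7.15% of all promoters. The element of PPAR nuclear receptors, AGGTCA repeated in tandem with any base between, was in 0 of the 43 and in 0.0396% of all. Letters so rare are hardly met in 43 promoters, so their absence there says little. A match is a description of letters and not a site. The stretches around the matches are given 5′ to 3′ on the strand of the gene, with the match in capitals, to show the element in Gsta3 beside those of the members with which it shares it. A match in capitals that ends in TCA is on the opposite strand. Ggct held another match, whose first base lay 5 bases after the start and which is not shown.
Gsta3 (chr1:21240449-21240487, plus strand, GRCm38.p6): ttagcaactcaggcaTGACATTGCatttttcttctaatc
Gstm5 (chr3:107895797-107895835, plus strand): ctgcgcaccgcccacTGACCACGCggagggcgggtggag
Gstm7 (chr3:107931720-107931758, minus strand): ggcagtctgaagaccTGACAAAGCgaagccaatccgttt
Gclm (chr3:122245408-122245446, plus strand): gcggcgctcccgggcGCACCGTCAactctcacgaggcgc
Mgst1 (chr6:138140456-138140494, plus strand): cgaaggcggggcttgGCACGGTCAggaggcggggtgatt
Ggct (chr6:54993018-54993056, minus strand): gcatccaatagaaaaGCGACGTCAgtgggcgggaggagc
The fitted differences of the 6 genes that share this core had both signs. Gsta3 had a log2 fold change of 1.08, Mgst1 one of 0.15, Gclm −0.06, Ggct −0.18, Gstm5 −0.44 and Gstm7 −0.56, and none of these passed the test. The direction of Gclm turned under 1 scaling, and those of Mgst1, Gclm and Ggct turned when 1 NC library was left out.

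The mu class, whose 7 genes lie side by side on chromosome 3 between 107895821 and 108044894, was the largest class by number. The fitted difference was negative in 5 of its 6 tested genes and 0.03 (SE 0.20) in Gstm1, which turned to −0.02 with library weights, and 0 of the 6 passed (smallest limma adjusted p = 0.9998). Gstm1, a major mu transferase of mouse liver and the most abundant of the class here, was at 124 ± 19.0 FPKM on HFD and 121 ± 12.4 FPKM on NC (SD, n = 3 each). Gstm7 had the largest negative difference of the class. It was at 10.3, 6.73 and 15.6 FPKM on HFD, against 15.1, 16.9 and 15.2 FPKM on NC. The NC libraries lay within 2 FPKM of each other, while HFD 3 lay among them and HFD 1 and HFD 2 below. The fitted log2 fold change was −0.56 (SE 0.27), and −0.29 when HFD 2 was left out. Gstm5, known in rodents for its expression in brain and testis, was at 27.0, 29.3 and 41.7 FPKM on HFD, against 48.3, 38.3 and 45.5 FPKM on NC. HFD 3 was again the library that overlapped NC, and the log2 fold change was −0.44 (SE 0.22). Gstm2 was at 70.7 ± 11.5 FPKM on HFD and 84.8 ± 6.62 FPKM on NC (SD, n = 3 each), with a log2 fold change of −0.27. It was −0.18 without HFD 2. After quantile normalization or median-of-ratios scaling, Gstm2, Gstm5 and Gstm7 no longer overlapped, with HFD below NC. Without mitochondrially encoded genes the diets overlapped in each of them. Gstm4 was at 3.95 ± 1.37 FPKM on HFD and 5.29 ± 2.27 FPKM on NC, and Gstm6 at 1.27 ± 0.965 FPKM on HFD and 2.10 ± 1.32 FPKM on NC (SD, n = 3 each). Their log2 fold changes of −0.32 and −0.47 were −0.04 for Gstm4 without NC 3 and −0.06 for Gstm6 without HFD 2. Gstm1 made up 48.4 to 56.5% of the summed mu level on HFD and 43.4 to 45.5% on NC.

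Gstp1 and Gstp2 encode the pi transferases, which are known for detoxifying electrophiles and for binding the stress kinase JNK. Gstp1 was at 92.9, 124 and 123 FPKM on HFD, against 140, 134 and 143 FPKM on NC. All HFD libraries were below all NC libraries, with HFD 1 furthest away, and the log2 fold change was −0.30 (SE 0.20, limma adjusted p = 0.9998). It was −0.17 without HFD 1, and the diets overlapped after quantile normalization. Gstp2 was at 9.25 ± 2.87 FPKM on HFD and 10.4 ± 3.48 FPKM on NC (SD, n = 3 each), with overlap (log2 fold change −0.13, SE 0.29, and 0.04 without NC 2). The coding sequences of Gstp1 and Gstp2 were 98.1% identical, and 62.3% of the 50-base stretches of the Gstp1 transcript also occurred in Gstp2. Likewise Gsta1 and Gsta2 were 97.6% identical and shared 44.6% of the stretches of Gsta1, and 16.8% of those of Gstm1 occurred in other mu genes. The levels of these genes are uncertain to the extent that reads were split between the copies. No stretch of Gsta3, Gsta4, Gstk1, Gstm5 or Gstm7 occurred in another member.

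Gstk1 encodes the kappa transferase, which is found in mitochondria and peroxisomes and differs in structure from the cytosolic classes. It was at 56.8, 52.0 and 63.2 FPKM on HFD, against 77.0, 69.5 and 74.2 FPKM on NC. Every HFD library was below every NC library, as deposited and under the 3 other scalings. The means were 57.3 ± 5.64 FPKM on HFD and 73.6 ± 3.80 FPKM on NC (SD, n = 3 each), a ratio of 0.779 and a log2 fold change of −0.36 (SE 0.19, limma adjusted p = 0.9998). Gstz1, the zeta transferase that also isomerises maleylacetoacetate in tyrosine breakdown, was at 10.4, 11.8 and 15.6 FPKM on HFD, against 15.5, 14.8 and 15.1 FPKM on NC. HFD 3 was the highest of the 6 libraries, so that the diets overlapped as deposited. They also overlapped without mitochondrially encoded genes, while HFD was below NC without overlap after quantile normalization and after median-of-ratios scaling. The log2 fold change was −0.26 (SE 0.22), −0.14 when HFD 1 was left out and −0.42 when HFD 3 was. Exons of Gstz1 overlap those of Pomt2 on the opposite strand, and whether reads were assigned by strand is not known here.

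The theta and omega classes overlapped between the diets. The theta genes Gstt1, Gstt2 and Gstt3 had positive log2 fold changes of 0.15, 0.34 and 0.14, with 0 of 3 past the threshold, and those of Gstt1 and Gstt3 turned to −0.05 and −0.09 without NC 2. Gstt2 was at 10.4, 12.4 and 6.44 FPKM on HFD, against 7.69, 5.48 and 8.89 FPKM on NC. HFD 3 was lower than 2 of the NC libraries, and the fitted difference of Gstt2 was 0.16 when HFD 2 was left out, 0.17 when NC 2 was and 0.58 when HFD 3 was. Gstt1 was at 28.3 ± 5.59 FPKM on HFD and 25.6 ± 5.97 FPKM on NC, and Gstt3 at 4.99 ± 0.393 FPKM on HFD and 4.57 ± 1.43 FPKM on NC (SD, n = 3 each). Exons of Gstt3 overlap those of Gm20441 on the same strand, which has no listed level. Gsto1, an omega transferase that works mainly as a thiol transferase and dehydroascorbate reductase, was at 53.3 ± 7.15 FPKM on HFD and 58.7 ± 16.2 FPKM on NC (SD, n = 3 each). The log2 fold change was −0.11 (SE 0.24), and 0.08 when NC 2 was left out.

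The microsomal transferases are membrane proteins of another family, and Mgst3 was the most abundant transferase gene of these hearts. It was at 189, 186 and 155 FPKM on HFD, against 207, 217 and 142 FPKM on NC. Library 3 was the lowest of each diet, and the log2 fold change of −0.08 (SE 0.22) became 0.01 without mitochondrially encoded genes and after equalising sums. Mgst1, an endoplasmic reticulum and mitochondrial outer membrane enzyme with peroxidase activity, was at 53.1 ± 3.17 FPKM on HFD and 49.2 ± 14.3 FPKM on NC (SD, n = 3 each). Its NC values ran between 33.7 FPKM in NC 2 and 61.9 FPKM in NC 1, around all 3 HFD values, and the fitted difference was 0.15 (log2, SE 0.24), and −0.09 when NC 2 was left out.

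Summed over all 25 transferase genes, the level was 770, 811 and 868 FPKM on HFD, against 961, 885 and 854 FPKM on NC. HFD 3 was above NC 3, so that the sums of the diets overlapped. Mgst3, Gstp1, Gstm1, Gstm2 and Gstk1 together held 65.0 to 68.6% of the sum in each library.

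**Figure D4:**
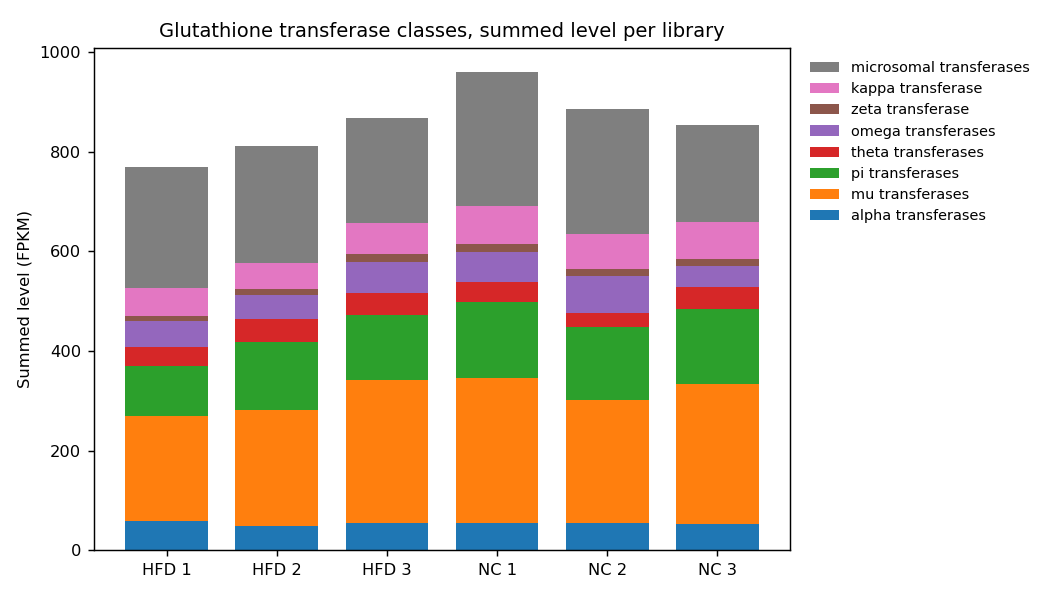
Summed level in FPKM of the glutathione transferase genes in each library, stacked by class. The bars reach 770 to 868 FPKM in the HFD libraries and 854 to 961 FPKM in the NC libraries, and the microsomal and mu classes are the tallest parts of each bar.

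The peroxidases fall into those that use selenocysteine (Gpx1, Gpx3 and Gpx4) and those with an ordinary cysteine in its place (Gpx7 and Gpx8). The coding sequences of the GENCODE vM21 transcripts show this difference, and the 33 bases around the active-site codon are given 5′ to 3′ in the sense of the mRNA with that codon in capitals and its own position. TGA, otherwise a stop codon, is read as selenocysteine, and TGT and TGC encode cysteine.
Gpx1 (codon at chr9:108339451-108339453, plus strand, GRCm38): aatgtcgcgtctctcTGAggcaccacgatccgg
Gpx3 (codon at chr11:54907256-54907258, plus strand): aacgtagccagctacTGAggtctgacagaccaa
Gpx4 (codon at chr10:80054737-80054739, plus strand): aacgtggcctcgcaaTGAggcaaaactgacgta
Gpx7 (codon at chr4:108403430-108403432, minus strand): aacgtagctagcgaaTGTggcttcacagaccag
Gpx8 (codon at chr13:113045661-113045663, minus strand): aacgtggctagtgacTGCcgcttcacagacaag
The fitted difference was negative in all 5 genes as deposited, with Gpx4 positive under 2 scalings, and 0 of the 5 passed the test (smallest limma adjusted p = 0.9998).

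Gpx4, the peroxidase that reduces phospholipid hydroperoxides and guards against ferroptosis, was the most abundant glutathione gene. It was at 278, 489 and 346 FPKM on HFD, against 367, 351 and 398 FPKM on NC. HFD 1 was the lowest and HFD 2 the highest of the 6 libraries, with all NC libraries between them. The log2 fold change of −0.04 (SE 0.23) had a 95% interval between −0.54 and 0.45, and it was 0.06 after quantile normalization and 0.05 without mitochondrially encoded genes. Gpx1, the soluble peroxidase of cytosol and mitochondria, was at 61.0, 93.1 and 77.4 FPKM on HFD, against 99.8, 73.7 and 106 FPKM on NC. The log2 fold change was −0.27 (SE 0.23), and −0.12 when HFD 1 was left out. Gpx1 protein is abundant in red cells, and the summed level of 6 erythroid markers was 7428, 13372 and 1241 FPKM on HFD, against 5742, 8294 and 2025 FPKM on NC. The erythroid sum was lowest in HFD 3 and NC 3, and NC 3 had the highest Gpx1 of the 6 libraries. It was highest in HFD 2, which had the highest Gpx1 of the HFD libraries. The part of red cells in the level of Gpx1 was not tested.

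Gpx3 encodes the secreted peroxidase of plasma, and its spread was the widest of the peroxidases. It was at 2.28, 6.68 and 14.7 FPKM on HFD, against 8.33, 7.10 and 28.6 FPKM on NC. The highest library was 12.5 times the lowest, and library 3 was the highest of each diet. The fitted difference was −0.83 (log2, SE 0.54). It was −0.24 when NC 3 was left out, −0.25 when HFD 1 was and −1.38 when HFD 3 was. Atrial and adipocyte markers also differed between these libraries. The summed level of 5 atrial markers was 1530, 428 and 7032 FPKM on HFD, against 3505, 344 and 13770 FPKM on NC, with 1 of the 5 (Bmp10) listed at 0 in HFD 1. That of 7 adipocyte markers was 2.85, 19.5 and 88.0 FPKM on HFD, against 96.4, 6.03 and 78.3 FPKM on NC, with 2 of the 7 (Lep and Retn) listed at 0 in some library. HFD 3 and NC 3, which had the highest Gpx3, were also highest in atrial markers. In a fit that included the atrial marker mean, the log2 fold change of Gpx3 was −0.69. The part of adipocyte markers in the level of Gpx3 was not tested.

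**Figure D5:**
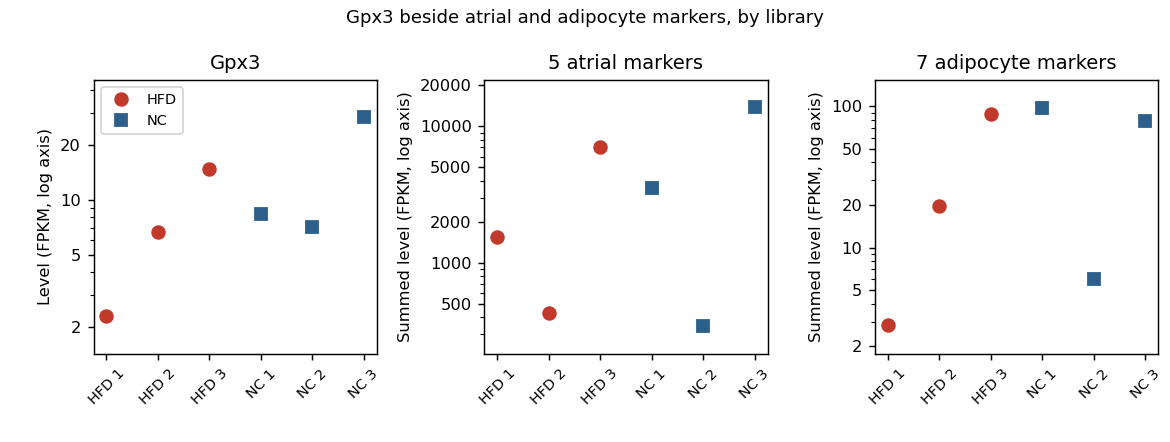
Level of Gpx3 and summed levels of the 5 atrial and 7 adipocyte markers in each library, in FPKM on log axes, with circles for HFD and squares for NC. Library 3 of each diet is the highest for Gpx3 (14.7 FPKM on HFD and 28.6 FPKM on NC) and for the atrial markers.

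The cysteine peroxidases Gpx7 and Gpx8 sit in the endoplasmic reticulum, where they use peroxide to help form disulfide bonds. Gpx7 was at 7.26, 9.11 and 7.40 FPKM on HFD, against 12.3, 7.23 and 13.2 FPKM on NC. NC 2 was the lowest of all 6 libraries, so that the diets overlapped. The fitted difference was −0.38 (log2, SE 0.25), −0.63 when NC 2 was left out and −0.24 when NC 3 was. Gpx8 was at 13.8, 19.0 and 18.6 FPKM on HFD, against 24.3, 21.9 and 18.1 FPKM on NC, a log2 fold change of −0.31 (SE 0.22). NC 3 lay among the HFD libraries, and the fitted difference of Gpx8 was −0.17 when HFD 1 was left out. The summed level of 7 fibroblast markers was 348, 260 and 526 FPKM on HFD, against 587, 336 and 611 FPKM on NC, and 6 of the 7 had a negative log2 fold change (median −0.53). Fibroblast markers were not alone in this. Macrophage markers were negative in 7 of 7 (median −0.57), smooth muscle and pericyte markers in 5 of 6 (median −0.28) and cardiomyocyte markers in 7 of 8 (median −0.24). Endothelial markers were positive in 6 of 6 (median 0.16), and so were the 3 tested epicardial and the 5 tested erythroid markers. The part of any of these cells in the levels of Gpx7 and Gpx8 was not tested.

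Genes of synthesis and recycling were low to moderate in level, and 0 of 5 passed the test. Gclc was at 2.26, 2.05 and 3.50 FPKM on HFD, against 2.65, 1.96 and 2.84 FPKM on NC. HFD and NC values overlapped, and the log2 fold change of 0.04 had a 95% interval between −0.48 and 0.55 and was −0.13 to 0.15 when 1 library was left out. Its partner Gclm was at 11.4 ± 0.650 FPKM on HFD and 11.9 ± 1.63 FPKM on NC (SD, n = 3 each). Its log2 fold change was −0.06, with an interval between −0.51 and 0.39, and 0.03 without mitochondrially encoded genes. Exons of Gclm overlap those of Gm6061, a pseudogene on the same strand (mean 0.720 FPKM). Gss was at 5.03 ± 1.78 FPKM on HFD and 4.37 ± 0.981 FPKM on NC (SD, n = 3 each, log2 fold change 0.14, and −0.04 without HFD 2), and its exons overlap those of Acss2 (mean 7.49 FPKM) on the opposite strand. Gsr was at 4.20 ± 1.37 FPKM on HFD and 3.50 ± 0.806 FPKM on NC (SD, n = 3 each, log2 fold change 0.19, and −0.02 without HFD 3). Ggct, the cyclotransferase that breaks down gamma-glutamyl dipeptides, was at 9.21 ± 0.312 FPKM on HFD and 10.8 ± 3.09 FPKM on NC (SD, n = 3 each, log2 fold change −0.18, and 0.02 without NC 1).

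Around these genes, 92 others that supply cysteine, turn over or export glutathione, make selenoproteins, regulate or follow NRF2, or remove peroxides and aldehydes were listed, of which 79 were tested. Of the 79, 41 had a positive and 38 a negative fitted difference (median 0.02, against −0.02 over all tested genes), 0 passed the adjusted test and 1 was under an unadjusted p of 0.05. HFD and NC values were separate in 10 of the 79, 7 with HFD above and 3 with HFD below, beside 3.25% and 4.88% of all tested genes.

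Among 9 regulators of NRF2 signalling, 8 had a positive fitted difference (median 0.28). The diets did not overlap, with HFD above, in 3 of the 9, beside 3.25% of all tested genes. Their mean log2(FPKM + 1) was 3.84, 4.02 and 4.38 on HFD, against 3.87, 3.74 and 3.80 on NC, so that HFD 1 was under NC 1. HFD 3 had the highest mean, and it was the highest of the 6 libraries in 34.5% of all tested genes. Nfe2l2, which encodes NRF2 itself, was at 17.5, 22.6 and 26.4 FPKM on HFD, against 18.4, 13.6 and 14.7 FPKM on NC (log2 fold change 0.48, SE 0.23). HFD 1 lay below NC 1. Nfe2l1, a related factor, was at 50.4, 49.2 and 78.6 FPKM on HFD, against 48.1, 41.5 and 36.3 FPKM on NC. Its diets did not overlap, but HFD 1 and HFD 2 were near NC 1. Bach1, a repressor that competes with NRF2, was at 4.38 ± 0.837 FPKM on HFD and 3.14 ± 0.462 FPKM on NC (SD, n = 3 each). Sqstm1 was at 126 ± 6.26 FPKM on HFD and 105 ± 4.82 FPKM on NC (SD, n = 3 each), and like Bach1 it did not overlap. Among 18 tested NRF2 targets outside the glutathione genes, 9 were positive and 9 negative (median 0.03). In 3 of the 18 the diets did not overlap, with HFD above in Ephx1 and Osgin1 and below in Taldo1. Of all tested genes, 3.25% were above and 4.88% below. Taldo1 was at 48.9, 59.4 and 63.7 FPKM on HFD, against 75.3, 65.7 and 66.7 FPKM on NC. Ephx1, the microsomal epoxide hydrolase, had the smallest p of the 79 genes. It was at 41.2, 50.3 and 50.8 FPKM on HFD, against 31.5, 32.6 and 35.7 FPKM on NC, and every HFD library was above every NC library (log2 fold change 0.49, SE 0.20, limma adjusted p = 0.9998). Osgin1 was at 2.16 ± 0.226 FPKM on HFD and 1.34 ± 0.107 FPKM on NC, without overlap, and Blvrb, a biliverdin reductase, at 13.3 ± 3.45 FPKM on HFD and 17.7 ± 4.74 FPKM on NC (SD, n = 3 each).

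The remaining lists had medians between −0.17 and 0.05. In cysteine supply 5 of 5 tested genes were positive, with Slc3a2, a heavy chain shared by several amino acid transporters, at 17.8, 18.7 and 19.5 FPKM on HFD, against 16.1, 11.7 and 17.2 FPKM on NC (no overlap), Mat2a with a log2 fold change of 0.33 and Ctns with one of 0.05. Slc7a11, the subunit that makes Slc3a2 a cystine transporter, was listed at 0 in HFD 1 and HFD 2, stayed at or under 0.0362 FPKM in the others and was not tested. In the gamma-glutamyl cycle 5 of 9 were positive, and Oplah, the 5-oxoprolinase, had a log2 fold change of 0.41, Chac1 one of 0.22 and Chac2 one of −0.18. In selenoprotein synthesis 3 of 8 were positive, and Eefsec, the selenocysteine elongation factor, had a log2 fold change of −0.52, Pstk one of −0.25 and Trit1 one of −0.19. Glutaredoxin 1, encoded by Glrx, was at 12.9, 6.07 and 13.6 FPKM on HFD, against 15.9, 15.7 and 14.8 FPKM on NC, without overlap (log2 fold change −0.54, SE 0.28). Its list of other peroxide and superoxide enzymes and glutaredoxins was positive in 3 of 8, among them catalase (Cat, 0.33), while Sod3 had a log2 fold change of −0.37. Of relatives with a transferase-like or microsomal fold 3 of 7 were positive (Clic5 0.48, Ptges2 0.30 and Clic1 −0.24), of conjugate export and mercapturate genes 3 of 6 (Acy3 −0.42, Abcc5 0.33 and Abcc4 0.21), and of aldehyde and glyoxal enzymes 2 of 9 (Hagh −0.39, Akr1b8 −0.42 and Aldh1a1 0.35).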

How the data were processed

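Hearts were profiled by mRNA-seq in 6 libraries, 3 per diet. The authors deposited FPKM values. How FPKM was computed, at what depth and with what use of strand is not stated in the labels. Without roles, the submitters' processing notes list DESeq2 1.18.1, HTSeq 0.13.5, HISAT2 2.2.1, Trimmomatic 0.38, FastQC 0.11.9, R 3.4.1 and the build mm10. In values under 0.3 FPKM, 2.50 to 5.32% of ratios to NC 1 lay within 0.02 (log2) of the commonest, so reads were not recovered and no count test was run. Symbols came from GENCODE vM21 (23718 of 23808 identifiers), of the same build.

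Those genes that averaged at least 1 FPKM were compared as log2(FPKM + 1), which understates changes of low genes, by the linear models of limma 3.58.1 under R 4.3.3 (moderated by eBayes with trend, two-sided, no covariates, Benjamini-Hochberg adjustment over 11456 genes). The procedure was tested on simulated data, where it called most of the larger changes and none of about the size fitted for Gsta3, so genes that did not pass are not shown to be alike. Every member with a mean of at least 1 FPKM is named, and of each surrounding list at least the 3 tested genes with the smallest p. Members and lists were chosen with earlier results of these data known. Active-site codons, shared stretches (50 bases) and identities were computed from GENCODE transcripts with Biopython 1.88, and figures drawn with matplotlib 3.10.9. Alternatives were other pseudocounts, filters, scalings and eBayes settings, library weights, a replicate block, an atrial covariate and each library left out.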

Additional observations from a re-analysis of the deposited data

How the results depend on the processing

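Under 19 alternative settings, the 29 glutathione genes kept 0 calls except with the replicate number as a block. There 1 was called (Gsta3, limma adjusted p = 0.0144) and 73 genes in all. The smallest limma adjusted p over all genes was 1.42e-93 in that fit, against 0.281 in the main fit. How reliable the p-values of the block fit are was not examined. Whether the numbers pair the libraries is not stated in the labels and was not settled here. Deviations from the diet means correlated at 0.193, 0.0864 and 0.275 between same-numbered libraries. Between other pairs across the diets they correlated at −0.361 (HFD 1 with NC 3) to 0.251 (HFD 1 with NC 2). Over all genes the count was 1 with the atrial covariate (Scgb1c1), and it ranged between 0 and 1 when 1 library was left out (1 without NC 2, the predicted gene Gm36956). The adjusted p of Gsta3 was between 0.358 and 0.9997 in the other settings, and its log2 fold change between 0.88 (without NC 3) and 1.27 (without NC 1).

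For 16 of the 29 genes the direction was the same in all settings run. Of 544 single-gene refits, 19 turned the direction by leaving out a library and 6 otherwise. After quantile normalization the log2 fold change of Gpx4 was 0.0591 and that of Mgst3 0.00144. Without mitochondrially encoded genes it was 0.0481 for Gpx4, 0.0120 for Mgst3 and 0.0263 for Gclm, and with library weights −0.0163 for Gstm1. Leaving out 1 library gave −0.260 to 0.147 for Gpx4, −0.0563 to 0.161 for Gstm1, −0.0416 to 0.400 for Gss, −0.269 to 0.0344 for Mgst3, −0.0164 to 0.333 for Gsr, −0.134 to 0.147 for Gclc, −0.115 to 0.0441 for Gclm, −0.334 to 0.0185 for Ggct, −0.0857 to 0.296 for Gstt3, −0.0468 to 0.304 for Gstt1, −0.325 to 0.0799 for Gsto1, −0.0937 to 0.336 for Mgst1 and −0.416 to 0.0391 for Gstp2. Of the 29 fitted differences 19 were negative as deposited, 17 after quantile normalization and 16 without mitochondrially encoded genes, settings in which the median of all genes was 0.01 and 0.05, against −0.02 as deposited. The causes were not tested. The depth behind the FPKM values is unknown.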
